A study of Mus musculus with 24 samples.

Results

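Podnl1, Ces2b and Ces2c are 3 genes of mouse chromosome 8 whose probes were brighter in every construct-transfected group than in cells given the empty plasmid. They were chosen from these arrays for that difference, so their levels and differences are given below as a description with no test. They account for 3 of 30139 gene names and 5 of 39429 probes on the array, 1 probe each for Podnl1 and Ces2b and 3 for Ces2c. All 3 genes passed the filter on dim probes.

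RNA came from the Bcr-Abl positive mouse leukaemia line DA1-3B, with C3H eOuJ given as the strain. All 6 groups share that background and differ in the plasmid they received: p65/RelA wild type (WT), a point mutant that is not cleaved (D361E), an N-terminal piece (p1-361), a C-terminal piece (p363-549), both fragments together (p1-361+p363-549), or the empty plasmid (VOID). Each group has 4 one-colour arrays, 24 in all, and nothing in the labels ties the 4 samples to separate cultures, so any p-value measures only the spread between these samples, which may be technical. One line was used, the labels name no promoter for the plasmids and no time after transfection, and they start the C-terminal fragment 1 residue earlier in the protocol than in the sample names. The question the design states is which genes p65 and the products of its cleavage regulate.

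p65/RelA is the main activating subunit of NF-kB, a transcription factor that binds short DNA sites and switches on genes of inflammation and survival. Its N-terminal part holds the domain that binds DNA and pairs with other subunits, and its C-terminal part holds the activation domains. Podnl1 encodes podocan-like 1, a secreted protein of the small leucine-rich proteoglycan family, which is best known from extracellular matrix. Ces2b and Ces2c encode carboxylesterases of the second subfamily, serine hydrolases of the endoplasmic reticulum that cleave ester and amide bonds in lipids and drugs. Ces2 enzymes are best known from liver and intestine, where Ces2c has been described as a lipid hydrolase.

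The probes are shown because the Ces2 genes are close copies of each other and the readout depends on which bases each probe holds. All 5 are 60-base probes on the + strand of chromosome 8 in mm9, and by their position in the transcript they sit towards its 3′ end. The Podnl1 probe A_52_P663704 lies at chr8:86656176-86656235 and shares no run of 20 bases with another probe of the array. Its first 30 bases follow.

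Podnl1: gggtaggtggccaagtagccctggcctaag

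The Ces2b probe A_52_P627269, at chr8:107362421-107362480, and the Ces2c probe A_55_P2124712, at chr8:107378258-107378317, share 31 of 34 bases where they overlap in alignment. Over the 30-base stretch shown, 28 bases are the same, and the capitals mark the 2 that differ. The array files list a transcript of the pseudogene Ces2d-ps beside Ces2c for A_55_P2124712.

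Ces2b (chr8:107362447-107362476): gcatTtgtcacctcagtctttgagctttcC
Ces2c (chr8:107378258-107378287): gcatCtgtcacctcagtctttgagctttcA

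Ces2c has a pair of further probes. A_52_P318361, at chr8:107378292-107378351, overlaps A_55_P2124712 by 26 bases. A_55_P2005213, at chr8:107378105-107378164, ends in the stop codon tag, and the files list transcripts of Ces2c, Ces2b and Ces2d-ps for it. It is also 51 of 60 bases identical to A_55_P2107528, a probe at chr8:107199432-107199491 on the − strand that carries no gene name in the files. Capitals mark the 9 bases that differ between them.

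A_55_P2005213 (Ces2c): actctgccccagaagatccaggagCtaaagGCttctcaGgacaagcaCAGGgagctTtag
A_55_P2107528 (no gene name): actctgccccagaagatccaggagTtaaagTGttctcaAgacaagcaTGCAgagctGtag

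Signals named for Ces2b and for Ces2c may therefore each hold a part from the other gene or from Ces2d-ps, and how much was not tested.

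The files gave processed signal intensity, and the level used here is the log2 of that signal minus the log2 of the array's own 75th percentile over all spots that are not controls, so 0 is the 75th percentile. That percentile lay between 635.8 and 1214 on the 24 arrays, and 49.4% to 55.5% of spots were well above background. Of 8 blood and myeloid markers, 5 were above background on all 24 arrays, whereas Kit was above it on none, Cd34 on 1 and Mpo on 4. Of 4 mast cell and basophil markers, each was above background on 12 or more arrays. For liver and gut, where Ces2 genes are best known, 5 of 7 hepatocyte markers (Alb, Apoa1, Ttr, Fgb and Cps1) and 5 of 6 enterocyte markers were above background on no array. The others were Tat on 19 arrays, Serpina1a on 18 and Vil1 on 2. Of 9 fibroblast and bone markers, 3 were above background on no array, and Runx2, on 13 arrays, was found most often. The single Rela probe lies close to the 3′ end of its transcript, where the sources used here do not say what the plasmids carry. It was 0.36 to 0.49 higher on the log2 scale in the 5 construct groups than in VOID.

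The labels give no replicate numbers, and those used here follow the order of the sample numbers within each group. On 3 arrays the pattern over 200 genes, with the members left out, was closest to another group. Replicate 4 of p1-361 correlated at 0.78 with p363-549 and at 0.16 with its own group. For replicate 4 of p363-549 the values were 0.97 with both fragments and -0.55 with its own group. Replicate 4 of both fragments correlated at 0.70 with p1-361 and at -0.10 with its own group. For the remaining 21 arrays the correlation with their own group was 0.52 to 0.95. These are correlations across genes, which are not independent replicates. The groups are kept as labelled, and results that rest on these arrays are given with and without them.

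Podnl1 was well above background on all 20 construct arrays and on 2 of the 4 VOID arrays. Its processed signal was 614, 632, 482 and 437 in WT, and 343, 256, 266 and 216 in D361E. In p1-361 it was 1681, 1729, 1062 and 202, and in p363-549 it was 200.4, 148, 150.3 and 926. Both fragments together gave 979.8, 1217, 918 and 1622, against 48.2, 48.7, 21.1 and 24.5 in VOID. Every construct array was brighter than every VOID array, and the low p1-361 array and the high p363-549 array are 2 of the 3 that resembled another group. Without those 3 arrays, the levels within each construct group spanned 0.24 to 0.97 on the log2 scale, whereas the 4 p1-361 arrays together spanned 3.41 and the 4 p363-549 arrays 2.57.

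On the log2 scale the Podnl1 level averaged -0.75 ± 0.37 in WT, -1.54 ± 0.42 in D361E, 0.11 ± 1.64 in p1-361, -1.45 ± 1.20 in p363-549 and 0.17 ± 0.35 with both fragments, against -4.55 ± 0.51 in VOID (SD, n = 4 each). The difference from VOID was 3.79 ± 0.59 in WT (limma standard error, as for all differences below), which is 13.9-fold. D361E differed by 3.01 ± 0.59, or 8.04-fold, and p363-549 by 3.102 ± 0.59, or 8.59-fold. The highest levels stood in the groups that received the N-terminal fragment: p1-361 differed from VOID by 4.66 ± 0.59, or 25.2-fold, and both fragments by 4.72 ± 0.59, or 26.3-fold. These folds rest on a VOID group with 2 of 4 arrays above background: after normexp background correction the log2 differences were 2.51 in WT, 1.77 in D361E, 3.25 in p1-361, 1.92 in p363-549 and 3.24 with both fragments. RNA was taken from whole cultures, where more cells with a transcript and more transcript per cell cannot be told apart.

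**Figure D1:**
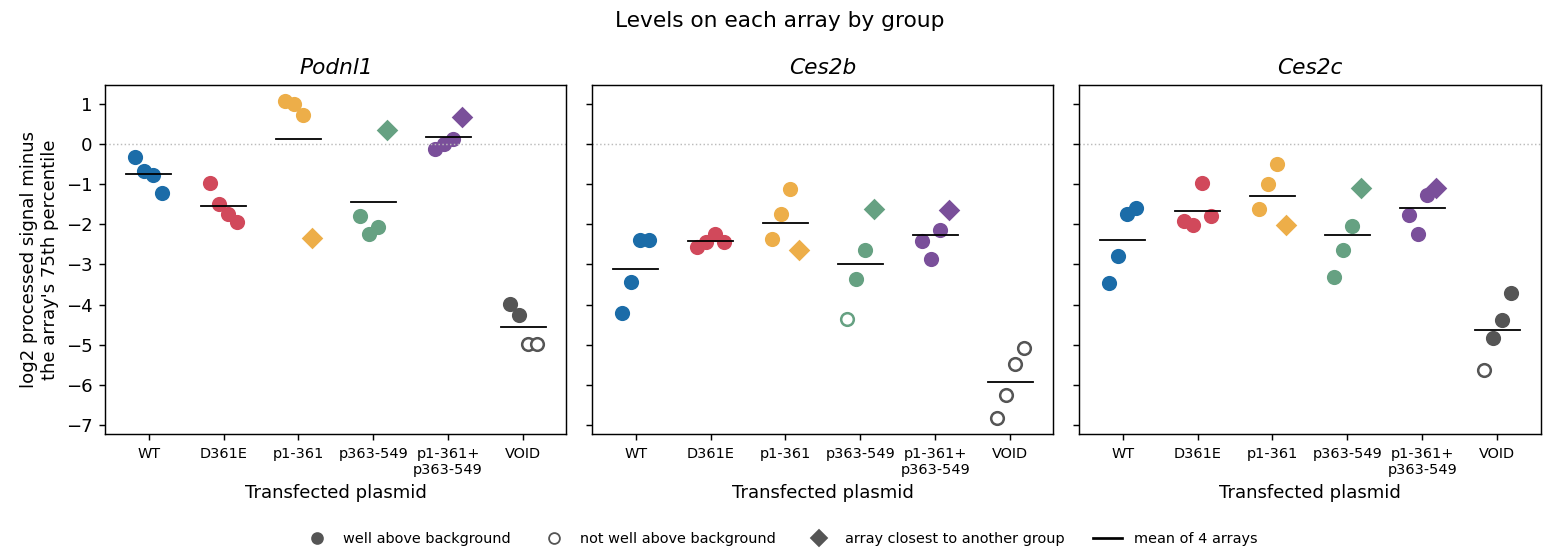
Level of Podnl1, Ces2b and Ces2c on each of the 24 arrays, as log2 processed signal minus the array's 75th percentile (y axis), by transfected plasmid (x axis). Filled points were well above background, open points were not, diamonds are the 3 arrays closest to another group, and the black lines are means of 4 arrays; every construct array lies above every VOID array for each gene.

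Leaving out the 3 arrays changed the order of the Podnl1 levels. With all arrays the order was both fragments, p1-361, WT, p363-549, D361E and VOID, and of these neighbours only D361E and VOID, 3.01 apart, did not overlap. Without the 3 arrays, p1-361 averaged 0.92 ± 0.18 (SD, n = 3) and stood 0.92 above both fragments, with no overlap. Both fragments in turn stood 0.75 above WT, again with no overlap. WT stood 0.79 above D361E, and D361E stood 0.50 above p363-549, with overlap in each case. The gap from p363-549, at -2.04 ± 0.22 (SD, n = 3), to VOID was 2.51, with no overlap. The differences from VOID without these arrays were 5.47 ± 0.26 in p1-361, 2.51 ± 0.26 in p363-549 and 4.55 ± 0.26 with both fragments. Choosing arrays by their values makes the errors smaller by itself. Fewer arrays also overlap less easily, and the share of all genes without overlap between these neighbouring groups was not taken.

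Against WT, the Podnl1 difference was -0.79 ± 0.59 in D361E, 0.86 ± 0.59 in p1-361, -0.69 ± 0.59 in p363-549 and 0.92 ± 0.59 with both fragments. Only the arrays with both fragments lay wholly apart from the WT arrays, which is 1 of 12 such comparisons over the 3 genes. The share of all genes that lie apart from WT was not taken, so nothing is read from this. Without the 3 arrays the difference from WT was 1.68 ± 0.26 in p1-361 and -1.29 ± 0.26 in p363-549. On the log2 scale, a sum of differences stands for a product of folds. There the difference of both fragments from VOID was smaller than the sum of the differences of each fragment alone. The gap was -3.04 ± 0.83 with all arrays and -3.43 ± 0.39 without the 3. The genes were chosen for standing above VOID with every construct. Where such differences are alike, the gap comes out negative, so nothing is read from it. It also rests on a VOID level near background, and its value after normexp correction is not given. In folds, both fragments stood at 26.3, against 25.2 for p1-361 and 8.59 for p363-549.

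Ces2b was dim. Its signal was 42.0, 93.4, 157 and 196 in WT, and 112, 133, 189 and 151 in D361E. It was 156, 260.1, 293 and 164 in p1-361, and 34.2, 67.5, 101 and 241 in p363-549. With both fragments it was 199, 165, 192 and 327, against 6.72, 12.1, 14.8 and 22.9 in VOID. The probe was well above background on 19 of 20 construct arrays, all but replicate 1 of p363-549, and on none of the 4 VOID arrays.

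The level of Ces2b averaged -3.10 ± 0.88 in WT, -2.43 ± 0.13 in D361E, -1.97 ± 0.67 in p1-361, -2.997 ± 1.16 in p363-549 and -2.27 ± 0.52 with both fragments, against -5.91 ± 0.78 in VOID (SD, n = 4 each). Ces2b was not well above background in VOID. Its folds are set against the dimmest signal of any probe counted as well above background on each VOID array. A single probe's own limit can lie higher, so these folds are not strict lower limits. On replicate 1 of p363-549, Ces2b at 34.2 was not well above background, whereas the Ces2c probe A_52_P318361 at 27.5 was. Against that dimmest signal Ces2b was 3.53-fold higher in WT, 5.64-fold in D361E, 7.75-fold in p1-361, 3.81-fold in p363-549 and 6.30-fold with both fragments. As measured, the log2 differences from VOID were 2.81, 3.48, 3.94, 2.92 and 3.64 in that order, each ± 0.50. After normexp background correction they were 1.09 to 1.64. Without the 3 arrays they were 4.16 ± 0.47 in p1-361, 2.46 ± 0.47 in p363-549 and 3.43 ± 0.47 with both fragments.

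For Ces2c, the A_55_P2124712 probe, the brightest of its 3, gave signals of 69.7, 148, 246 and 338 in WT, and 176, 181, 460.3 and 238 in D361E. In p1-361 the signals were 260.1, 436, 451 and 253, and in p363-549 they were 69.9, 111, 153 and 346. Both fragments gave 312, 254, 352 and 478, against 15.5, 32.7, 32.1 and 58.9 in VOID. All 20 construct arrays and 3 of 4 VOID arrays were well above background, and no construct array fell into the range of VOID.

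The Ces2c level averaged -2.40 ± 0.89 in WT, -1.68 ± 0.48 in D361E, -1.29 ± 0.66 in p1-361, -2.28 ± 0.95 in p363-549 and -1.60 ± 0.52 with both fragments, against -4.63 ± 0.80 in VOID (SD, n = 4 each). The differences from VOID, each ± 0.49, were 2.23 in WT (4.70-fold), 2.96 in D361E (7.77-fold), 3.34 in p1-361 (10.2-fold), 2.35 in p363-549 (5.11-fold) and 3.04 with both fragments (8.20-fold). Ces2b and Ces2c shared 1 order of groups: p1-361, both fragments, D361E, p363-549, WT and VOID, in which all neighbours overlapped except WT and VOID. Without the 3 arrays the order of both genes was p1-361, D361E, both fragments, WT, p363-549 and VOID, and only p363-549 and VOID did not overlap. Relative to WT, no construct group of Ces2b or Ces2c lay wholly apart, and the log2 differences ran from 0.11 ± 0.50 (Ces2b in p363-549) to 1.13 ± 0.50 (Ces2b in p1-361). Without the 3 arrays the difference of p363-549 from WT turned to -0.35 ± 0.47 for Ces2b and -0.28 ± 0.48 for Ces2c, and that of p1-361 was 1.35 for each gene. As with Podnl1, both fragments together differed from VOID in Ces2c by less than the log2 sum of the single fragments, by -2.66 ± 0.69. That sum again stands for a product of folds, and the limits given for the Podnl1 gap hold here too. No such value is given for Ces2b, which was not well above background in VOID. After normexp background correction the Ces2c differences from VOID were 1.24 to 1.97.

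The other Ces2c probes gave like values. A_55_P2005213 differed from VOID by 2.20 in WT, 2.93 in D361E, 3.44 in p1-361, 2.42 in p363-549 and 3.05 with both fragments. A_52_P318361 was on none of the 4 VOID arrays well above background, so it was set against the same dimmest signal as Ces2b. On that basis it was 2.61-fold higher in WT, 4.08-fold in D361E, 5.67-fold in p1-361, 2.77-fold in p363-549 and 4.82-fold with both fragments. In D361E, A_55_P2124712 had an SD of 0.48 and a single bright array, replicate 3, whereas A_55_P2005213 had an SD of 0.17 and A_52_P318361 of 0.14 over the same RNA.

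**Figure D2:**
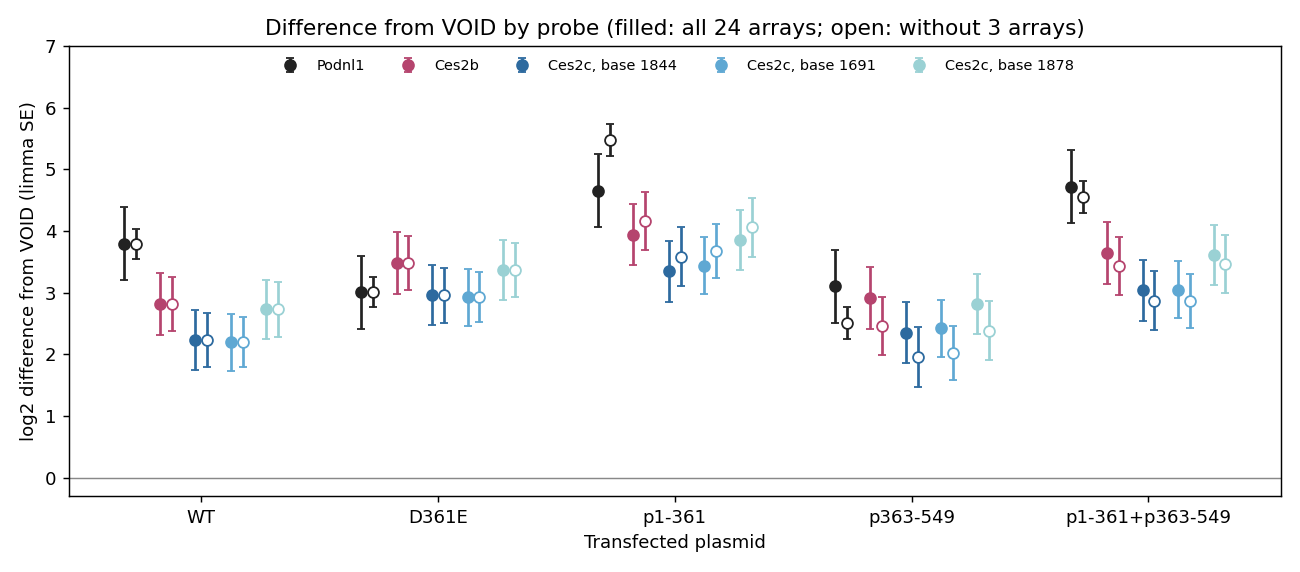
Difference from VOID in log2 level (y axis, bars are limma standard errors) for the 5 probes in each construct group (x axis), with all 24 arrays (filled) and without 3 arrays (open). Ces2c probes are named by their first transcript base. All points lie above 0; Podnl1 in p1-361 stands at 4.66 with all arrays and 5.47 without the 3, and values of probes below background in VOID (Ces2b and base 1878 of Ces2c) are as measured.

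Over the 3 genes, all 15 differences between a construct and VOID had arrays that did not overlap. Over all genes with a value on every array compared, all 4 construct arrays were above all 4 VOID arrays for 2.35% in WT, 2.77% in D361E, 2.47% in p1-361, 1.66% in p363-549 and 5.56% with both fragments. The rule chose the genes on these comparisons, so nothing is read from the count. The share of all 14990 genes that passed limma's test at a Benjamini-Hochberg adjusted p of 0.05 was 0.487% in WT, 0.66% in D361E, 0.72% in p1-361, 0.567% in p363-549 and 4.46% with both fragments, and 4.94% passed in at least 1 of the 5. These comparisons share the same 4 VOID arrays, so a low value there enters each of them.

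Every construct array was above every VOID array for each gene. The direction was therefore fixed on every slide and in every run of 6 consecutive sample numbers that held both a construct and VOID. Only the sizes of the differences are described here. Slides held 4 arrays of 4 groups, and runs held 1 array of each group; the labels call neither a batch. For Podnl1, the 4 differences from VOID within runs were 3.56 to 4.20 in WT, 2.74 to 3.22 in D361E, 2.64 to 5.70 in p1-361, 2.01 to 5.31 in p363-549 and 3.87 to 5.65 with both fragments. Within slides, the lowest were 1.65 on the slide with replicate 4 of p1-361 and 1.91 on the slide with replicate 3 of p363-549, which is the same slide and the same VOID array. Ces2b ran from 2.45 to 4.51 within runs and from 1.14 to 4.65 within slides. Ces2c ran from 1.70 to 4.00 within runs and from 1.05 to 3.86 within slides.

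Averaged over the 6 groups, Podnl1 stood at -1.02, -1.28, -1.46 and -1.58 in samples 1 to 6, 7 to 12, 13 to 18 and 19 to 24. For the same runs Ces2b stood at -3.79, -3.36, -2.68 and -2.63, and Ces2c at -2.95, -2.59, -1.82 and -1.89. The order was alike over WT, D361E and VOID, the 3 groups with none of the 3 arrays in question: Podnl1 stood at -1.76, -2.15, -2.50 and -2.72, Ces2b at -4.53, -4.05, -3.38 and -3.31, and Ces2c at -3.67, -3.20, -2.36 and -2.37. In the fragment groups run 4 holds those 3 arrays, and there it was the highest run of Podnl1 in p363-549 and with both fragments, and the lowest of Ces2b and Ces2c in p1-361. The lowest VOID array of Ces2b was in the first run, at -6.83, and the lowest VOID arrays of Podnl1 in the last pair of runs, at -4.98 each. The 75th percentile did not order the runs this way, with medians of 769, 900.5, 745 and 924. Whether the runs differ in culture, extraction or hybridisation was not tested.

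Over the 24 arrays the level of Podnl1 correlated with Ces2b at r = 0.81 and with Ces2c at r = 0.78. These arrays share the 6 group means, and with those removed r was 0.27 and 0.25. Without the 3 arrays as well, it was -0.72 and -0.71. Ces2b and Ces2c correlated at r = 0.99 over the 24 arrays and at 0.97 with group means removed, between probes that share 31 of 34 aligned bases. For the Ces2c probe A_52_P318361, which shares no run of 20 bases with the Ces2b probe, r was 0.996 and 0.983. Whether shared bases enter these values was not tested. All these values are descriptions over arrays that share transfections.

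**Figure D3:**
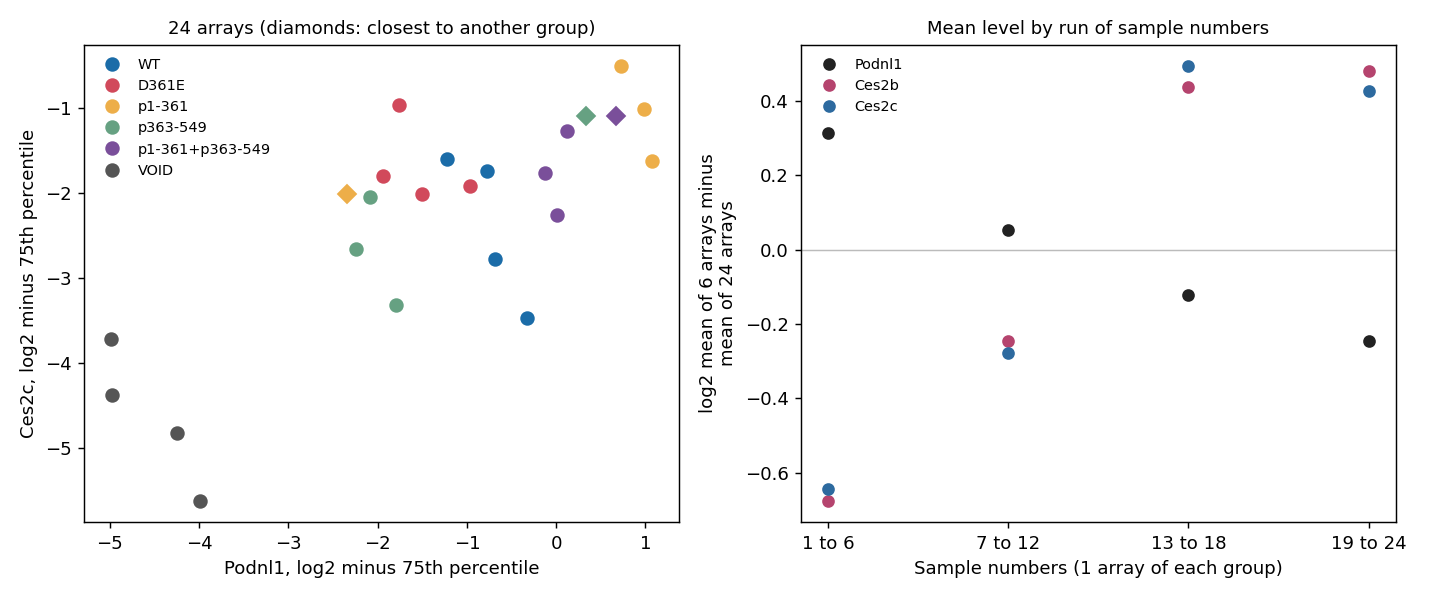
Left, level of Ces2c (y axis) against Podnl1 (x axis) on the 24 arrays, both as log2 signal minus the 75th percentile, coloured by group. Right, mean level over the 6 groups in each run of sample numbers (x axis), minus the mean of all arrays (y axis, log2): Podnl1 is highest in samples 1 to 6 and the Ces2 genes are lowest there.

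Among the other tested genes, those most like the members over the 24 arrays were named by Pearson r, the 5 highest for each. For Podnl1 they were Clec4d (r = 0.88), a lectin receptor of myeloid cells, Pf4 (0.84), the platelet chemokine, 6230400D17Rik (0.84), 5830415G21Rik (0.83) and Prss16 (0.82), a thymic serine protease. With group means and the 3 arrays removed, r fell to -0.24 for Clec4d, -0.01 for Pf4 and -0.25 for Prss16. It was 0.41 for 6230400D17Rik and 0.13 for 5830415G21Rik. Pf4 differed from VOID by 1.71 in WT, 1.99 in D361E, 2.15 in p1-361, 1.76 in p363-549 and 3.51 with both fragments. For Ces2c they were the unnamed probe A_55_P2107528 (0.93), 5830415G21Rik (0.88), Gimap6 (0.88), a GTPase of lymphocytes, Vmac (0.87) and F11r (0.84), a junctional adhesion molecule. Ces2b had the first 4 of these and Pbx2 (0.85), a homeodomain factor. After group means and the 3 arrays were removed, Gimap6 correlated at 0.79 with Ces2c and 0.80 with Ces2b. In the same order, the unnamed probe stood at 0.79 and 0.81, Vmac at 0.72 and 0.66, and 5830415G21Rik at 0.34 and 0.38. F11r stood at 0.81 with Ces2c, and Pbx2 at 0.57 with Ces2b.

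The unnamed probe A_55_P2107528, whose sequence is given above beside the Ces2c probe, stands here for its likeness to the Ces2 members, so its values are a description too. It was well above background on 1 array of WT, 4 of D361E, 2 of p1-361, 1 of p363-549 and 3 of both fragments, and on 0 of VOID, and it passed the filter through D361E alone. Its level averaged -4.57 ± 0.35 in D361E, -4.23 ± 0.92 in p1-361 and -4.61 ± 0.52 with both fragments, against -6.97 ± 0.41 in VOID (SD, n = 4 each). Against the dimmest signal of any probe counted as well above background in VOID, these groups were 1.28-, 1.62- and 1.24-fold higher. In WT it averaged -5.57 ± 1.31 and in p363-549 -5.29 ± 1.08 (SD, n = 4 each), which gives no fold above background.

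Most of the other carboxylesterase genes were not above background. Of 18 other carboxylesterase genes listed, 17 had a probe, and 10 of these were well above background on no array, Ces2a, Ces2f and Ces1d among them. Another 6 were above it on 1 to 4 of the 24 arrays. Ces2g, the nearest gene tested on the higher-coordinate side of Ces2c, was above background on all 24 arrays and was the only one that passed the filter. Its level was 1.94 in WT, 2.18 in D361E, 2.04 in p1-361, 2.19 in p363-549 and 1.78 with both fragments, against 1.96 in VOID. No Ces2g difference from VOID passed limma's test: they were -0.02, 0.22, 0.09, 0.23 and -0.18 in that order, each ± 0.17, with the smallest adjusted p at 0.579 and 0 with an unadjusted p under 0.05.

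**Figure D4:**
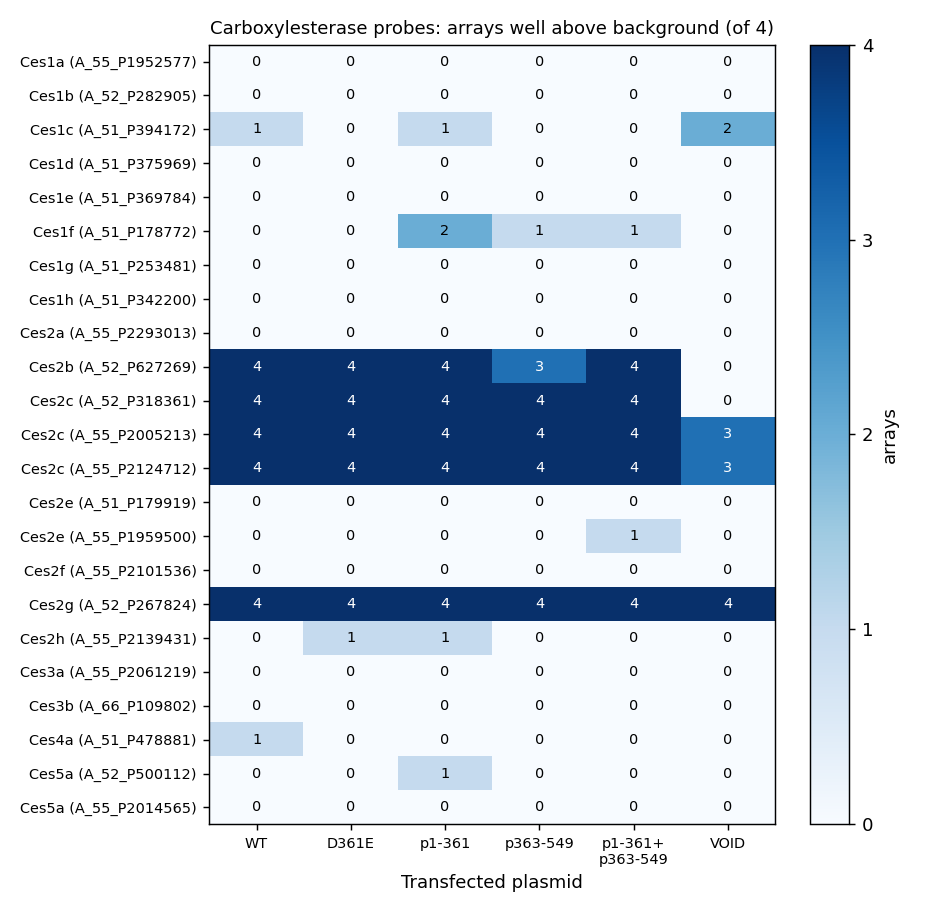
Number of arrays, of 4 in each group (x axis), on which each carboxylesterase probe (y axis) was well above background. Ces2g stands at 4 in all groups, Ces2b and the 3 Ces2c probes at 3 or 4 in construct groups and 0 to 3 in VOID, and the other probes at 0 to 2.

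Small leucine-rich proteoglycan genes, the family of Podnl1, were likewise rare. Of 17 others on the array, 7 were above background on no array and 6 on 1 to 4, Podn, the nearest relative, among the 6. Only Bgn (biglycan), Chadl and Nyx were tested. Nyx (nyctalopin, known from the retina) was lower with both fragments (adjusted p = 0.00236, limma). It was above background on 0 of 4 arrays there, against 4 of 4 in VOID. Set against the dimmest signal counted as well above background on those arrays, it was 3.85-fold lower. Bgn and Chadl passed in no comparison, with differences of -0.53 ± 0.49 and 0.04 ± 0.20 for both fragments against VOID. The Nyx call is 1 of 3 genes, where 4.46% of all genes passed in that comparison, and it was lost after normexp background correction.

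For genes that handle the substrates of carboxylesterases, calls did not stand out from the share of all genes. Of 33 genes of neutral lipid hydrolysis and lipid droplets, 19 were tested and 0 passed limma's test in any comparison, where 4.94% of all genes passed in at least 1. An unadjusted p under 0.05 in at least 1 comparison was found for 5 of the 19, where 27% of all genes had one. Among the 23 xenobiotic and oxidant response genes given below it was 7. With the runs of sample numbers as a block, 4 of the 19 lipid genes passed. The share of all genes that passed under that block is not given here, and 4.94% does not apply to it. Nothing is therefore read from that count. The median difference of the 19 was 0.00 in WT, -0.04 in D361E, -0.09 in p1-361, -0.08 in p363-549 and 0.01 with both fragments, where the median of all genes lay between -0.04 and 0.03. Of 23 xenobiotic and oxidant response genes tested, 1 passed: Abcc2, an exporter of conjugated compounds, differed by -1.88 ± 0.50 with both fragments (adjusted p = 0.0317, limma) and was above background on 1 of 4 arrays there, against 4 of 4 in VOID. The call of Abcc2 is 1 of 23, where 4.46% of all genes passed, and it was lost after normexp or quantile normalization, with slide as a fixed block, with only the 8 arrays compared, and on leaving out replicate 1 or 2 of both fragments or replicate 2 or 4 of VOID.

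On the chromosome, the 3 nearest tested genes on each side of Podnl1 were Il27ra, Rfx1 and Dcaf15, and Cc2d1a, 4930432K21Rik and Nanos3. Around the Ces2b and Ces2c pair they were Pdp2, Rrad and Ciao2b, and Ces2g, Cbfb and D230025D16Rik. Of these 12, 0 were called higher in a construct group by limma, where 2.3% of all genes were in at least 1. An unadjusted p under 0.05 in either direction was found for 4 in at least 1 comparison, where 27% of all genes had one. Il27ra, a chain of the interleukin-27 receptor, fell by 0.77 ± 0.14 with both fragments (adjusted p = 0.00167, limma) and by 0.68 ± 0.14 in p363-549 (adjusted p = 0.0159), and differed by -0.54 ± 0.14 in p1-361 (adjusted p = 0.0791). Both Il27ra calls were lost after normexp and with only the 8 arrays compared. Differences of the other 11 ran from -0.46 to 0.23.

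A promoter sequence from RefSeq (GRCm38.p6) was at hand for Ces2c and for Ces2a, Ces2e, Ces2f, Ces2g and Ces2h of its subfamily, and it was searched because p65 is a DNA-binding factor. None was at hand for Podnl1 or Ces2b, so the promoters of these members were not searched. The motif was GGACTTTCC, the core of a classical NF-kB site, on both strands, and then the looser GGNNTTTCC, which contains it. Ces2c held GGACTTTCC once on the + strand, 140 bases before the annotated start, at chr8:104846928-104846936. It stands in capitals in the 250 bases upstream of the start (chr8:104846818-104847067, + strand).

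Ces2c promoter: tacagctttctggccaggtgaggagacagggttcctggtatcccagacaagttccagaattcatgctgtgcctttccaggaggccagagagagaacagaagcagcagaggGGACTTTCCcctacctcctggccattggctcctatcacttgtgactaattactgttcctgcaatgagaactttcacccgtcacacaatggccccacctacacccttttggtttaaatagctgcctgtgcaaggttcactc

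Of 32851 promoter windows of 300 bases, 113 (0.344%) held GGACTTTCC and 1913 (5.823%) held GGNNTTTCC. The windows of Ces2a, Ces2e, Ces2f and Ces2h held neither, and Ces2g held the looser one only. A 30-base stretch of Ces2c around the motif was set against each window without gaps. Its best match in Ces2g had 18 of 30 bases the same and 7 of the 9 of the motif. In Ces2a it had 16 of 30 and 6 of 9, and in Ces2f 19 of 30 and 4 of 9. Ces2e had 15 of 30 and 4 of 9, and Ces2h 15 of 30 and 5 of 9. Each is the best of all positions in its window. How well unrelated windows match was not taken, so no conservation is read from these counts. The Ces2g and Ces2a stretches are shown. Capitals mark the motif in the Ces2c line and bases that differ from Ces2c in the other lines.

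Ces2c (chr8:104846918-104846947): gcagcagaggGGACTTTCCcctacctcctg
Ces2g (chr8:104961589-104961618): ATaAATACAgCgactttGccctGcctccAg
Ces2a (chr8:104733855-104733884): AcTgcagaggTgGctttGccTGCTTGTTGg

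A match in letters is a description of the window, and binding of p65 was not measured here.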

How the data were processed

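RNA from 24 samples was hybridised in one colour (Cy3). Per the submitters' processing notes and the file headers, scans were read by Agilent Feature Extraction 10.7.3.1. The authors deposited its processed signal intensity, which is corrected for background and spatial trend within each array but not between arrays, beside raw intensity and other per-spot marks. Intensity values in the authors' series table were identical to these (largest difference 0). No spot was saturated.

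The 185 to 312 spots per array marked non-uniform or population outlier were left out, and repeated spots averaged. Log2 signal minus the array's 75th percentile was the measure. Probes stayed if some group had all 4 arrays well above background (19522 probes). The brightest probe by mean represented each of 14990 genes. RefSeq accessions gave the gene name of 27597 probes, and the array files gave the others. With R 4.3.3 and limma 3.58.1, a linear model with a mean for each group used all arrays (18 residual and 3.06 prior degrees of freedom), 2-sided, with Benjamini-Hochberg adjustment over all genes of a comparison. The number of arrays limits the precision. On simulated data for p1-361 against VOID over 14990 genes, 61 of 100 changes of log2 size 1 and 99 of 100 of size 3 were called, with 8 false calls. The members, lists and the 3 arrays left out were chosen with earlier results of these data known. All probes of the members were named, with the 5 most alike genes per member, called list genes and the nearest neighbours. The likeness, levels and member differences carry no test. Alternatives were normexp, quantile normalization, another percentile base, filters, slide and run blocks, fewer arrays, other probe rules, the series table, and each array left out.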

Additional observations from a re-analysis of the deposited data

Results flagged for a closer look

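Podnl1 on replicate 4 of p1-361 stood at -2.34, far from the other 3 arrays of its group at 0.72 to 1.07. The gap was 0.899 of the group's whole range, above Dixon's critical value of 0.829 for 4 samples. Among the 18 groups of 4 arrays checked (3 genes in 6 groups) it was the only one above that value, and chance sets apart about 1 group in 20. Podnl1 on replicate 4 of p363-549 came next and only just missed it, with a gap of 0.8288 of the range. It stood there at 0.33, and on the remaining p363-549 arrays at -2.24 to -1.80. Over the 200 genes that left the members out, replicate 4 of p1-361 was closest to p363-549, and replicate 4 of p363-549 to both fragments. The cause was not tested.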

How the results depend on the processing

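All member differences from VOID kept their direction under every alternative run. They also kept it with each array left out, which was fixed in advance because no construct array overlapped VOID. After normexp background correction with an offset of 50, which lifts dim values, they moved to 2.51, 1.77, 3.25, 1.92 and 3.24 for Podnl1 (WT, D361E, p1-361, p363-549 and both fragments, each minus VOID), 1.22, 1.30, 1.64, 1.09 and 1.62 for Ces2b, and 1.26, 1.66, 1.97, 1.24 and 1.77 for Ces2c. A filter that kept a probe only where no array of the 24 was dim gave the members no value. Of genes of the small leucine-rich proteoglycan list, 1 was called in the design used here, 0 after normexp, 0 under that stricter filter, 2 without the 3 arrays, and 1 to 2 with single arrays left out (2 without p1-361 replicate 4). Lipid genes had 0 calls, 4 with the runs of sample numbers as a block, 1 without the 3 arrays, and 0 to 1 with single arrays left out (1 without p1-361 replicate 4). Xenobiotic genes had 1 call, and 0 after normexp, after quantile normalization, under the stricter filter, with slide as a fixed block, and with only the 8 arrays compared; they had 4 with runs as a block, 5 without the 3 arrays, and 0 (without both fragments replicate 1 or 2 or VOID replicate 2 or 4) to 3 (without both fragments replicate 4) with single arrays left out. Of the chromosomal neighbours 1 was called, 0 after normexp, 0 with only the 8 arrays, 3 with runs as a block, and 1 with each array left out. The causes were not tested. Over all alternatives the totals of called genes ran from 27 to 219 (WT), 36 to 269 (D361E), 25 to 450 (p1-361), 12 to 270 (p363-549) and 213 to 2420 (both fragments). The share of all genes that passed in at least 1 comparison is given only for the design used here. Nothing is therefore read from the list counts under other settings. The labels give no replicate numbers, so the only pairing of all groups tried was by runs of sample numbers, as a block. Slides, which held 4 of the 6 groups each, were also fitted as a fixed and as a random block.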

Other observations

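Of the genes tested with GGACTTTCC in their promoter window, the members aside, 10 of 50 (20.0%) passed limma's test in at least 1 construct against VOID, where 4.94% of all genes did. For GGNNTTTCC it was 48 of 682 (7.04%). The motif and the count were chosen after the data were seen and carry no test. The 10 did not move one way. With both fragments the difference from VOID was 1.13 for Ltb, a lymphotoxin chain, 1.63 for Neurl3, 1.04 for Nfkb2, an NF-kB subunit, 0.98 for Ifngr2, an interferon-gamma receptor chain, and 0.61 for Nfkbia, an inhibitor of NF-kB. It was -1.53 for Csf1, the macrophage growth factor, -1.95 for Btg2, -2.12 for Lpar2 and -0.98 for Myadm, and F13a1 was lower as well. In WT the differences were 1.45 for Ltb, 1.52 for Neurl3, 0.37 for Nfkb2, 0.66 for Ifngr2 and 1.70 for Nfkbia. There Csf1 differed by 0.14, Btg2 by -0.58, Lpar2 by -1.04 and Myadm by -0.10, with F13a1 lower again. The median over the 50 lay between 0.01 and 0.10 in the 5 comparisons.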
